A study of Arabidopsis thaliana with 4 samples.

Results

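The comparison set the cadmium (Cd) response of ein3eil1 roots against that of Col roots, 1 gene model at a time, in seedlings of Arabidopsis thaliana. Total root RNA of 4 libraries was used, 1 per group: ein3eil1 with Cd, untreated ein3eil1, Col with Cd and untreated Col. Col (Col-0) is the wild type, and ein3eil1 is the double mutant with the ein3-1 and eil1-1 alleles. All seedlings were 5 days old and grown on MS medium, and the Cd groups had 150 µM CdSO4 for 6 h. Root tip and primary root both appear as tissue in the labels, while their extraction text also names shoots, so shoot and root RNA cannot be told apart. Whether untreated seedlings were also kept for 6 h is not stated, so an effect of the handling cannot be told apart from one of Cd. With 1 library per group there was no replicate check and no test across samples.

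The authors' tables list, for each genotype, the models that differed at least 2-fold between the Cd and the untreated library. Of 1001 models listed for ein3eil1 and 807 listed for Col, 290 stood in both tables, and the 285 of these with 1 RPKM or more in any of the 4 libraries are described here. RPKM is the read count of a model divided by its length and by the total reads of its library. The lowest of the 285 reached 1.03 RPKM in its highest library, and the highest of the 5 models left out reached 0.992 RPKM. The libraries held 16802110 reads (ein3eil1 with Cd), 16993296 (untreated ein3eil1), 16773595 (Col with Cd) and 19192279 (untreated Col). Another 711 models were listed for ein3eil1 alone and 517 for Col alone, and how those moved in the other genotype is not known from the tables. EIN3 and EIL1 are in neither table, which leaves the genotype of the mutant libraries unchecked.

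EIN3 and EIL1 are transcription factors that accumulate when ethylene is perceived and switch on ethylene-responsive genes, partly through ERF factors that they induce. Roots exposed to Cd make phytochelatins, which are built from glutathione and bind the metal, and this draws on sulfate uptake and assimilation. Sulfur-poor roots are known to switch on sulfate transporters and to switch off the synthesis of glucosinolates, the sulfur-rich defence compounds of the cabbage family.

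For each model the difference between genotypes was the log2 ratio of Cd over untreated in Col minus the same log2 ratio in ein3eil1, so that a positive difference means the higher ratio in Col. Its 95% interval comes from the 4 read counts, and each fold below has a 95% exact interval from 2 read counts, given in brackets. Both cover counting error only, and reads amplified by PCR are not independent molecules. In bulk RNA, fewer cells of a type and less RNA per cell cannot be told apart.

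Most of the shared response ran the same way and to a similar size in both genotypes. With Cd, 149 models (52.3%) were higher in both, 109 (38.2%) were lower in both and 27 (9.47%) moved in opposite directions. In the whole tables, 63.1% of the models listed for ein3eil1 and 55.6% of those listed for Col were higher with Cd. Of the models that moved the same way, 220 (77.2% of the 285) differed by less than 2-fold between genotypes, and for 133 of these the whole interval lay inside 2-fold. A further 8 (2.81%) had a ratio at least 2-fold larger in ein3eil1 and 17 (5.96%) in Col, each with an interval that excluded 0, while 13 more differed by 2-fold or more with an interval that held 0. The median difference over the 285 was -0.06. A model had to be listed in both tables to be counted, so genes that responded in 1 genotype only are absent from these shares.

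**Figure D1:**
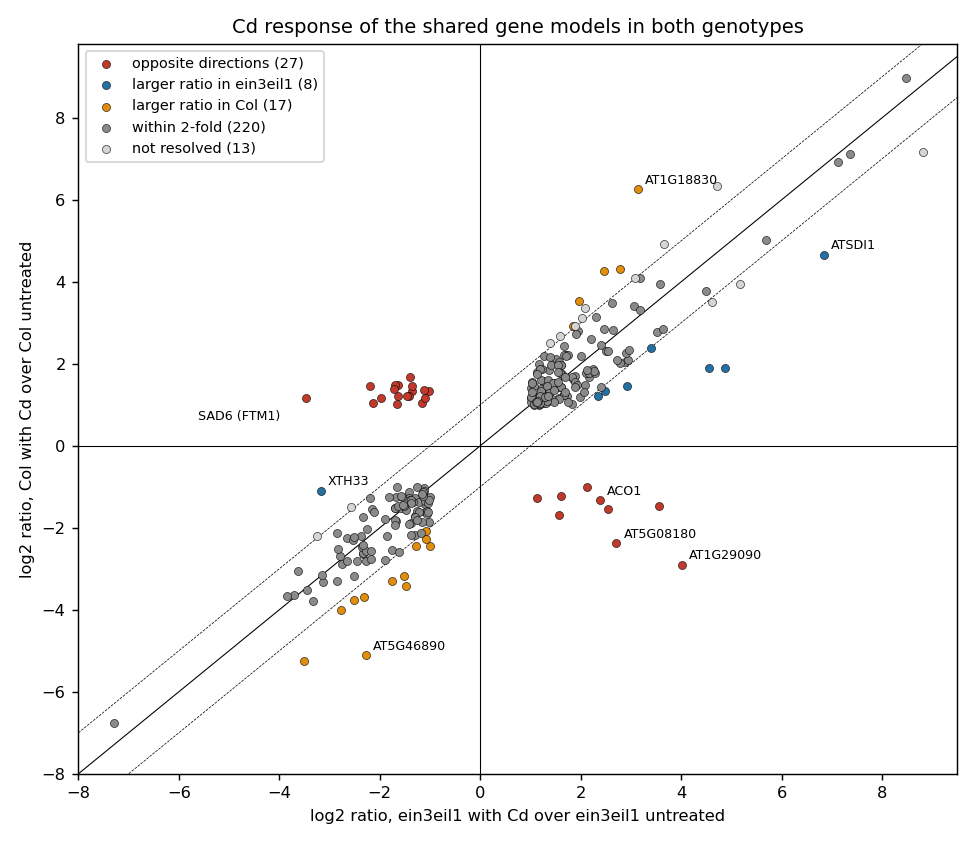
The log2 ratio of Cd over untreated in Col (y axis) is plotted against the same log2 ratio in ein3eil1 (x axis) for the 285 shared gene models, coloured by class. The solid line marks equal ratios and the dashed lines a 2-fold difference; 27 models lie in the upper left and lower right quadrants, and no model lies near either axis because the tables list 2-fold changes only.

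Among the 27 models of opposite direction, 18 stood lower with Cd in ein3eil1 and higher with Cd in Col, and 9 the other way round. The folds of the 18 ran between 2.02 and 11.0 in ein3eil1 and between 2.04 and 3.18 in Col. For the 9, they ran between 2.18 and 16.2 in ein3eil1 and between 2.01 and 7.46 in Col. In 20 of the 27 the larger of the 2 folds was that of ein3eil1, beside 140 of all 285 models. All 27 intervals of the difference excluded 0, which the listing of both ratios past 2-fold largely fixes.

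PROPEP1, LOX3, FAMT, JAL33 and AtPP2-B14, 5 of the 18 with roles in defence, jasmonate or related processes, were put side by side after their values were seen and do not form a function group. Of the 13 models of the defence and signal peptide group, 1 (7.69%) was of opposite direction, beside 9.47% of the 285. Of the same 13, 10 (76.9%) differed by less than 2-fold, beside 77.2% of the 285. PROPEP1 (AT5G64900, chromosome 5, 25937170 to 25938093 in the authors' coordinates), the precursor of a peptide that signals cell damage, had 50.9 RPKM in ein3eil1 with Cd and 103 RPKM in untreated ein3eil1, against 49.9 RPKM in Col with Cd and 19.7 RPKM in untreated Col. It was 2.02-fold lower (1.80 to 2.27) with Cd in ein3eil1 and 2.53-fold higher (2.14 to 3.02) in Col, a difference of 2.35 (2.06 to 2.65). The untreated mutant was the highest of the 4 libraries, and the Cd libraries of both genotypes lay close together. LOX3 (AT1G17420, chromosome 1, 5977411 to 5981480), a lipoxygenase of jasmonate synthesis, showed the same order, with 8.88 and 19.9 RPKM in ein3eil1 with and without Cd, against 6.61 and 3.21 RPKM in Col with and without Cd. Its ratio was 2.24-fold lower (2.0 to 2.51) in ein3eil1 and 2.06-fold higher (1.72 to 2.49) in Col, a difference of 2.21. FAMT (AT3G44860), an enzyme that methylates farnesoic acid, had 7.38 RPKM in ein3eil1 with Cd and 18.9 RPKM in untreated ein3eil1, against 3.19 RPKM in Col with Cd and 1.27 RPKM in untreated Col. Unlike PROPEP1, FAMT stood apart between the genotypes with Cd as well, 2.31-fold higher (1.72 to 3.14) in ein3eil1 than in Col, beside 14.9-fold higher (10.3 to 22.4) without Cd. JAL33, a jacalin-type lectin, had 2.83 and 8.81 RPKM in ein3eil1 with and without Cd, against 4.37 and 1.87 RPKM in Col with and without Cd, and AtPP2-B14, a phloem protein 2 relative, had 2.70 and 5.75 RPKM in ein3eil1 with and without Cd, against 7.39 and 3.27 RPKM in Col with and without Cd. For both of these the mutant was the lower genotype with Cd and the higher one without.

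The 250 bases before the RefSeq start (TAIR10.1) of PROPEP1, LOX3 and AT4G14450, which moved lower in ein3eil1 and higher in Col, and of AT2G05510, which moved the other way, are printed because they hold the words searched for: W boxes, the sites of WRKY factors, and the words that EIN3 and its tobacco relative bind. They are chr5:25936828-25937077, chr1:5977073-5977322, chr4:8309134-8309383 and chr2:2015374-2015623, on the forward strand in each case. Capitals mark the W box in the first 3 and an EIN3 word in the fourth.
PROPEP1: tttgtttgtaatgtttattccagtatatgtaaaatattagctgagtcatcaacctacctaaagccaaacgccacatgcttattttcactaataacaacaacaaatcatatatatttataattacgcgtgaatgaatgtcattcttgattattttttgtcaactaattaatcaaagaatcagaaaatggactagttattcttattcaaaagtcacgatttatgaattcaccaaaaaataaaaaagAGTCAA
LOX3: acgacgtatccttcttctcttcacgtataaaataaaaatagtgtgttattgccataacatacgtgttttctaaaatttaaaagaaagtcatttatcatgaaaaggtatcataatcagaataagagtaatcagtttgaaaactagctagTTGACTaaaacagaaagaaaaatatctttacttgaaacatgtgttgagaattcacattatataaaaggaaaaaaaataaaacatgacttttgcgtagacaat
AT4G14450: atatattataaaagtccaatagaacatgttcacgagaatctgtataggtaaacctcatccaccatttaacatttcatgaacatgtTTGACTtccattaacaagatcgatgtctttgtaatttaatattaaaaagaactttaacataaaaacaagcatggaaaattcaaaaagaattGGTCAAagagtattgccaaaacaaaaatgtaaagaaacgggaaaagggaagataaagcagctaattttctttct
AT2G05510: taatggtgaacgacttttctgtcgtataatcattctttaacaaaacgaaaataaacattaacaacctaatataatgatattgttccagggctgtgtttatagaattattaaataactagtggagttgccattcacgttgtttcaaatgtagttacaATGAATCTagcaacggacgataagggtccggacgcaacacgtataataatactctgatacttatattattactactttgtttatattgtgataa

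The W box, TTGACC or TTGACT on either strand, stood in 9 of the 18 promoters of models lower in ein3eil1 and higher in Col (50%), in 2 of the 9 of the reverse kind (22.2%), in 34.6% of 283 shared models with a promoter and in 28.4% of 27443 protein-coding genes. In PROPEP1 the word ended at the base before the start, and in AT4G14450, a gene of unknown function, there were 2, at 165 and 74 bases before it. The EIN3 words, ACGAACCT, ACGAATCT, ACGTACCT, ACGTATCT, ATGAACCT, ATGAATCT, ATGTACCT and ATGTATCT on either strand, stood in none of the 18, in 1 of the 9, in 4.59% of the shared promoters and in 5.93% of all protein-coding genes. That 1 was AT2G05510, with ATGAATCT from 94 to 87 bases before the start. The GCC box, GCCGCC, the site of ERF factors, was in none of the 27 and in 1.87% of all. The telo box, AAACCCTA, found in many ribosomal gene promoters, was in 4 of the 18 (22.2%), in none of the 9 and in 4.49% of all. These 4 were AT1G05785, TIM10, AT4G09260 and the snoRNA AT4G39363, none of them a ribosomal protein gene. The ribosomal protein gene among the 18, AT5G47700, had no telo box. The windows of TIM10 and AT4G39363 also overlapped other annotated genes. A word in this window is a description of its letters, and 6 promoters of all had an EIN3 word that overlapped a W box. The W box and the telo box were among 7 words added after values were seen.

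The model with the largest positive difference was SAD6, also called FTM1 (AT1G43800, chromosome 1, 16577610 to 16579722), a stearoyl-acyl carrier protein desaturase that introduces the first double bond into plastid fatty acids. It had 2.21 RPKM in ein3eil1 with Cd and 24.3 RPKM in untreated ein3eil1, against 5.66 RPKM in Col with Cd and 2.53 RPKM in untreated Col. The untreated mutant stood apart from the other 3 libraries, 9.62-fold higher (7.47 to 12.6) than untreated Col. With Cd the model was 11.0-fold lower (8.28 to 14.9) in ein3eil1 and 2.24-fold higher (1.66 to 3.04) in Col, a difference of 4.62 (4.04 to 5.21).

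Transport and metal genes were also among the 18. NRT3.1, listed as WR3 (AT5G50200), the partner protein of high-affinity nitrate transporters, had 16.8 RPKM in ein3eil1 with Cd and 44.5 RPKM in untreated ein3eil1, against 39.1 RPKM in Col with Cd and 12.3 RPKM in untreated Col. It was 2.65-fold lower (2.29 to 3.06) with Cd in the mutant and 3.18-fold higher (2.73 to 3.73) in Col. NRT1.8, a nitrate transporter of the same function group, was higher with Cd in both genotypes, 4.51-fold higher in ein3eil1 and 3.43-fold higher in Col, so the nitrate genes did not move as a block. The aquaporin-like SIP2;1 had 1.34 and 4.19 RPKM in ein3eil1 with and without Cd, against 3.66 and 1.32 RPKM in Col with and without Cd. AT5G52760, annotated as a copper transport protein, had 1.21 and 4.79 RPKM in ein3eil1 with and without Cd, against 6.62 and 2.94 RPKM in Col with and without Cd, and its difference was 3.16 (2.11 to 4.21). Its mutant library with Cd held 13 reads. HEMB1 (AT1G69740), an enzyme of tetrapyrrole synthesis, had 1.70 and 4.38 RPKM in ein3eil1 with and without Cd, against 5.50 and 2.02 RPKM in Col with and without Cd. In NRT3.1, SIP2;1, AT5G52760 and HEMB1 the untreated mutant and Col with Cd were the 2 higher libraries.

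Models of the ribosome and of the mitochondrion were found on both sides. AT5G47700, a 60S acidic ribosomal protein, was the most abundant of the 27, with 95 RPKM in ein3eil1 with Cd and 418 RPKM in untreated ein3eil1, against 214 RPKM in Col with Cd and 104 RPKM in untreated Col, and its difference was 3.18 (3.04 to 3.31). TIM10 (AT2G29530), a chaperone of protein import into mitochondria, had 12.4 and 39.1 RPKM in ein3eil1 with and without Cd, against 19.7 and 9.66 RPKM in Col with and without Cd. Both genes were highest in the untreated mutant. In the reverse direction, AT5G08180 (chromosome 5, 2631654 to 2633455), of the ribosomal L7Ae family, had 34.2 RPKM in ein3eil1 with Cd and 5.24 RPKM in untreated ein3eil1, against 5.87 RPKM in Col with Cd and 30.4 RPKM in untreated Col, a difference of -5.08 (-5.60 to -4.56). AT5G22440, of the ribosomal L1p/L10e family, had 23.7 and 7.98 RPKM in ein3eil1 with and without Cd, against 6.94 and 22.3 RPKM in Col with and without Cd. ACO1 (AT4G35830), the aconitase that turns citrate into isocitrate, had 14.3 RPKM in ein3eil1 with Cd and 2.73 RPKM in untreated ein3eil1, against 4.19 RPKM in Col with Cd and 10.5 RPKM in untreated Col, and mtACP3, a mitochondrial acyl carrier protein, had 27.0 and 8.83 RPKM in ein3eil1 with and without Cd, against 8.57 and 19.9 RPKM in Col with and without Cd. In these 4 models the Cd library of the mutant and the untreated library of Col were the 2 higher ones. The snoRNA AT4G39363, with 17 to 56 reads per library, moved like AT5G47700 and had a difference of 3.18 (2.11 to 4.25). Thus 4 of 5 models of the ribosome and noncoding RNA group and 3 of 4 of the mitochondrion group were of opposite direction, beside 9.47% of the 285, and the directions were mixed within each group. At loci with 1 transcript in the RefSeq annotation, 1 of 2 models of the ribosome group was of opposite direction and no mitochondrion model was left.

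MT2A (AT3G09390, chromosome 3, 2889486 to 2890229), a metallothionein, a small cysteine-rich protein that binds metals, had 79.5 RPKM in ein3eil1 with Cd and 36.4 RPKM in untreated ein3eil1, against 49.8 RPKM in Col with Cd and 121 RPKM in untreated Col. It was 2.18-fold higher (1.92 to 2.49) with Cd in ein3eil1 and 2.43-fold lower (2.18 to 2.71) in Col, a difference of -2.41 (-2.65 to -2.16). Untreated Col was the highest library and the untreated mutant the lowest.

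The largest difference of any shared model was that of AT1G29090 (chromosome 1, 10162983 to 10164452), a papain-type cysteine proteinase. It had 3.04 RPKM in ein3eil1 with Cd and 0.188 RPKM in untreated ein3eil1, against 2.14 RPKM in Col with Cd and 15.9 RPKM in untreated Col. With Cd it was 16.2-fold higher (6.02 to 61.2) in ein3eil1 and 7.46-fold lower (5.47 to 10.4) in Col, a difference of -6.92 (-8.44 to -5.39). The mutant ratio rests on 4 untreated reads. Another 2 models had no read in the untreated mutant, so that a ratio could be given only against 3 reads. AtGH9B15, a glycosyl hydrolase of the cellulase type, had 35 reads with Cd and none without in ein3eil1, at least 11.8-fold higher against 3 reads, a limit that counting error takes down to 9.10, against 1.38 and 3.80 RPKM in Col with and without Cd. AT2G05510, a glycine-rich protein, had 13 reads with Cd and none without in ein3eil1, at least 4.38-fold higher against 3 reads, a limit that counting error takes down to 3.08, against 15.0 and 30.2 RPKM in Col with and without Cd. AT1G52342, of unknown function, had 3.35 and 0.571 RPKM in ein3eil1 with and without Cd, against 2.66 and 7.79 RPKM in Col with and without Cd.

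The remaining models of opposite direction carry no assigned function or a general one. AT2G20820 had 83.8 and 232 RPKM in ein3eil1 with and without Cd, against 165 and 70.9 RPKM in Col with and without Cd, the second highest levels of the set. AT1G56060 had 1.91 and 8.77 RPKM in ein3eil1 with and without Cd, against 7.93 and 2.87 RPKM in Col with and without Cd, AT4G09260 had 5.50 and 11.9 RPKM in ein3eil1 with and without Cd, against 15.1 and 5.94 RPKM in Col with and without Cd, and AT4G14450 had 2.65 and 7.04 RPKM in ein3eil1 with and without Cd, against 9.48 and 4.10 RPKM in Col with and without Cd. The vesicle transport protein AT1G05785 had 1.30 and 4.25 RPKM in ein3eil1 with and without Cd, against 4.47 and 1.70 RPKM in Col with and without Cd. All 5 were higher in the untreated mutant than in untreated Col and lower in the mutant with Cd than in Col with Cd.

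**Figure D2:**
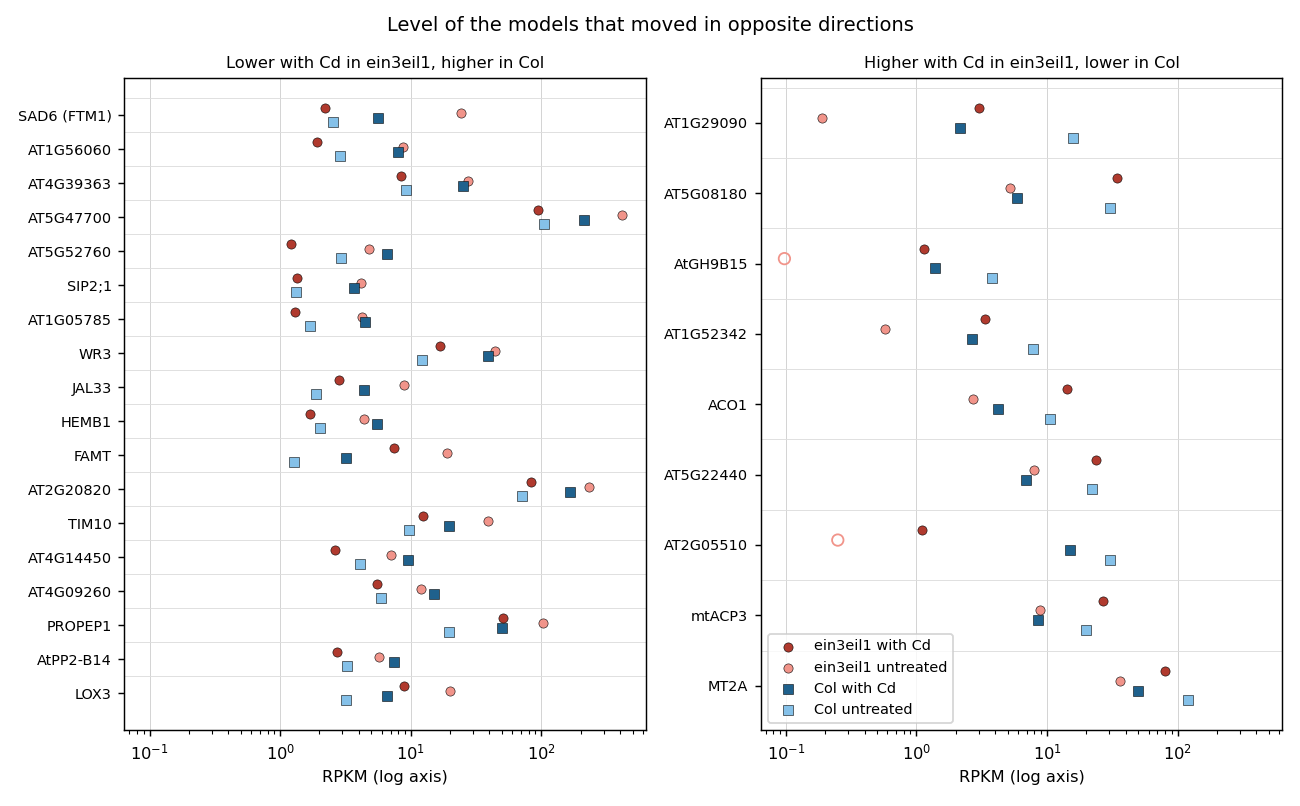
RPKM on a log axis is plotted in each of the 4 libraries for the 27 models of opposite direction, 18 in the left panel and 9 in the right, with ein3eil1 as circles and Col as squares, and open circles at the level of 3 reads where the library had none. In most rows the dark circle (ein3eil1 with Cd) lies near the light square (untreated Col), and the light circle (untreated ein3eil1) near the dark square (Col with Cd).

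The levels of the 27 can also be set side by side between genotypes. Over all 285 models, ein3eil1 stood 2-fold or more above Col in 64 (22.5%) with Cd and in 73 (25.6%) without, and 2-fold or more below Col in 45 (15.8%) in either state. Of the 18 models lower with Cd in the mutant and higher in Col, 15 had less RPKM in ein3eil1 than in Col with Cd, 12 of them by 2-fold or more, and without Cd all 18 had more RPKM in ein3eil1, 15 by 2-fold or more. Of the 9 reverse models, 7 were higher in ein3eil1 than in Col with Cd, 4 by 2-fold or more, and without Cd all 9 were lower in ein3eil1 by 2-fold or more. In 17 of the 27, ein3eil1 with Cd lay within 2-fold of untreated Col, and untreated ein3eil1 lay within 2-fold of Col with Cd. These were 5.96% of the 285, with 0 of the 258 that moved the same way. A model past 2-fold in the same direction in both genotypes cannot meet both conditions, so that contrast is fixed by the listing. The 10 others of the 27 included PROPEP1, LOX3, FAMT, SAD6 and AT1G29090. When both ratios pass 2-fold in opposite directions, the gaps between genotypes with and without Cd must differ by 4-fold or more, so a part of this pattern is fixed by how the models were chosen. Levels set across genotypes come from separate tables, each library scaled to its own total.

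Loci with 1 transcript in the RefSeq annotation held 11 of the 27 models of opposite direction (40.7%) and 178 of the 258 that moved the same way (69%). They were PROPEP1, LOX3, SAD6, FAMT, AtPP2-B14, AT1G29090, AtGH9B15, AT1G52342, AT4G09260, AT4G14450 and AT4G39363. Models other than the first of their locus were 4 of the 27, namely TIM10, AT2G20820, JAL33 and SIP2;1, and 6 of the 258. Another annotated gene overlapped 6 of the 27 loci (22.2%) and 50 of 256 others (19.5%). How reads were divided between transcripts or overlapping genes is not given in the sources used here, and its part in these values was not tested.

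The distance between genotypes narrowed with Cd by 2-fold or more in 27 of the 285 models (9.47%) and widened in 13 (4.56%). It turned round, with 2-fold or more on each side, in 15 models, 13 of them of opposite direction. Among models with 10 RPKM or more, the 5 that narrowed most were AT1G29090, PROPEP1, LOX3, FAMT and AT2G05510, which were all of opposite direction. The 5 that widened most were AT5G46890, AT5G46900, CER4, ATST4B and LSU1, and each of these moved the same way in both genotypes.

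**Figure D3:**
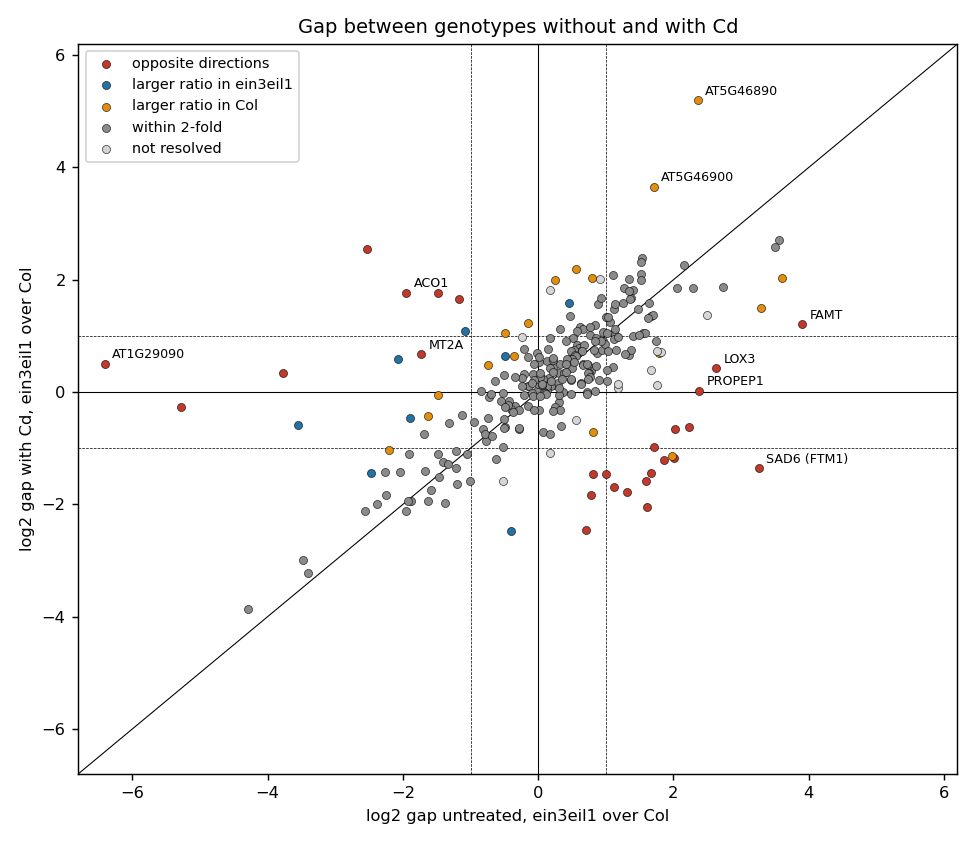
The log2 level of ein3eil1 over Col with Cd (y axis) is plotted against the same without Cd (x axis) for the 285 shared models, coloured by class of the Cd response. AT2G05510, at -6.92 without Cd and -3.78 with Cd, lies beyond the x axis range and is not shown. The solid diagonal marks equal gaps and the dashed lines 2-fold; most models lie near the diagonal, while PROPEP1 and LOX3 lie near 0 with Cd and AT5G46890 lies highest.

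Of the 8 models with the larger response in ein3eil1, 7 were higher with Cd. SDI1 (listed as ATSDI1, AT5G48850), a protein induced by sulfur shortage, had 30.0 RPKM in ein3eil1 with Cd and 0.263 RPKM in untreated ein3eil1, against 14.2 RPKM in Col with Cd and 0.558 RPKM in untreated Col. It was 114-fold higher (48.6 to 353) in ein3eil1 and 25.4-fold higher (14.3 to 49.7) in Col, resting on 5 and 12 untreated reads, a difference of -2.17 (-3.69 to -0.65). SULTR1;1 (AT4G08620), a high-affinity sulfate transporter of the root surface, had 32.5 RPKM in ein3eil1 with Cd and 3.08 RPKM in untreated ein3eil1, against 88.6 RPKM in Col with Cd and 17.0 RPKM in untreated Col, and its ratios were 10.5-fold higher (8.75 to 12.8) and 5.21-fold higher (4.81 to 5.64) in ein3eil1 and in Col, a difference of -1.02 (-1.31 to -0.73). The mutant was the lower genotype for SULTR1;1 in both conditions, 2.73-fold lower (2.56 to 2.91) with Cd and 5.52-fold lower (4.55 to 6.75) without. PYD4, an aminotransferase, was 29.3-fold higher in ein3eil1 and 3.76-fold higher in Col, with 4 reads in the untreated mutant. AT4G31330, of unknown function, had 11.3 and 1.5 RPKM in ein3eil1 with and without Cd, against 15.5 and 5.61 RPKM in Col with and without Cd, and AT1G64590, a dehydrogenase-like protein, had 15.6 and 3.09 RPKM in ein3eil1 with and without Cd, against 5.21 and 2.24 RPKM in Col with and without Cd. AT5G42235 and the thioredoxin-like AT4G33040 were the other 2 that were higher. The 1 model lower in both was XTH33 (AT1G10550), a xyloglucan-modifying enzyme of the cell wall, with 0.78 RPKM in ein3eil1 with Cd and 7.05 RPKM in untreated ein3eil1, against 4.35 RPKM in Col with Cd and 9.32 RPKM in untreated Col. It was 9.04-fold lower (5.20 to 17.0) with Cd in ein3eil1 and 2.14-fold lower (1.64 to 2.82) in Col.

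Below 2-fold, 4 more models had the largest differences in favour of ein3eil1. They were ranked among models with 10 RPKM or more and an interval that excluded 0. PMZ (SAP12), a zinc finger stress protein, had 41.3 and 7.78 RPKM in ein3eil1 with and without Cd, against 24.2 and 9.03 RPKM in Col with and without Cd, a difference of -0.99. The metal transporter ZIP9 was 7.65-fold higher in ein3eil1 and 4.25-fold higher in Col, the small heat shock protein AT2G29500 was 3.94-fold higher and 2.29-fold higher, and the calcium-binding ANNAT4 was 4.61-fold lower and 2.43-fold lower. All 4 intervals excluded a difference of 0, as the choice required. The pectin lyase-like AT1G11920 differed by -0.84 (-1.84 to 0.16) and was left out for that reason.

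Of the 17 models with the larger response in Col, 12 were lower with Cd. The 2 lipid-transfer proteins AT5G46890 and AT5G46900, which are next-door genes, led them. AT5G46890 (chromosome 5, 19036296 to 19036916) had 91.5 RPKM in ein3eil1 with Cd and 444 RPKM in untreated ein3eil1, against 2.50 RPKM in Col with Cd and 86.3 RPKM in untreated Col, so that it was 4.85-fold lower (4.53 to 5.21) in ein3eil1 and 34.6-fold lower (23.5 to 53.2) in Col, a difference of -2.83 (-3.40 to -2.26). AT5G46900 had 173 and 478 RPKM in ein3eil1 with and without Cd, against 13.7 and 147 RPKM in Col with and without Cd, a difference of -1.95. With Cd the mutant stood 36.7-fold higher than Col for the first and 12.6-fold higher for the second, beside 5.15-fold higher and 3.26-fold higher without Cd. How the authors assigned reads that match 2 related genes is not given in the sources used here. CER4, which makes the primary alcohols of wax and suberin, had 1.81 and 20.6 RPKM in ein3eil1 with and without Cd, against 0.454 and 17.3 RPKM in Col with and without Cd, with 13 reads in Col with Cd.

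The 2 models of iron uptake were lower by the larger factor in Col. IRT1 (AT4G19690), the iron transporter of the root epidermis that also carries zinc and Cd, had 10.8 RPKM in ein3eil1 with Cd and 53.7 RPKM in untreated ein3eil1, against 4.63 RPKM in Col with Cd and 59.7 RPKM in untreated Col. It was 4.97-fold lower (4.33 to 5.71) in ein3eil1 and 12.9-fold lower (10.6 to 15.8) in Col, a difference of -1.38 (-1.72 to -1.03). FRO2, the ferric reductase that supplies IRT1 with iron, had 8.94 and 51.4 RPKM in ein3eil1 with and without Cd, against 6.38 and 86.2 RPKM in Col with and without Cd, a difference of -1.23 (-1.48 to -0.99). The zinc transporters ZIP5 and ZIP9 were higher in both genotypes. Of the 7 metal models 2 were of opposite direction (MT2A and AT5G52760), 2 had the larger ratio in Col and 3 differed by less than 2-fold. Over the 285 models these shares were 9.47%, 5.96% and 77.2%.

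BXL1 and BGAL4, glycosidases that act on the cell wall, were also lower by the larger factor in Col. They were 2 of 14 models of sugar and glycoside metabolism, of which 10 differed by less than 2-fold and 1, AtGH9B15, was of opposite direction. Over the 285 models, 77.2% differed by less than 2-fold and 9.47% were of opposite direction. BXL1, a beta-xylosidase, had 13.9 RPKM in ein3eil1 with Cd and 28.0 RPKM in untreated ein3eil1, against 14.5 RPKM in Col with Cd and 78.2 RPKM in untreated Col, and BGAL4, a beta-galactosidase, had 26.2 and 55.1 RPKM in ein3eil1 with and without Cd, against 35.3 and 171 RPKM in Col with and without Cd. With Cd the mutant lay 1.04-fold lower than Col for BXL1 and 1.34-fold lower for BGAL4, and without Cd it lay 2.79-fold lower and 3.10-fold lower. BT1, a BTB and TAZ domain protein that responds to sugar and nitrate, likewise had 9.95 and 24.0 RPKM in ein3eil1 with and without Cd, against 20.4 and 110.3 RPKM in Col with and without Cd, whereas its relative BT2 was lower in both genotypes to the same degree, with a difference of 0.04 (-0.11 to 0.18). ATST4B, a sulfotransferase, was 6.83-fold lower in ein3eil1 and 16.1-fold lower in Col, and the transporter AT3G45700 was 3.36-fold lower and 9.78-fold lower. The 5 that were higher in both, with the larger ratio in Col, were HSP17.4, the chitinase AT2G43620, the receptor-like kinase EMB1290 (CRK17), the lipase ATLTL1 and AT1G18830, each with 22 or fewer reads in untreated Col.

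The plots of 4 function groups show each model's difference. In glucosinolate synthesis, 17 of 17 models were lower with Cd in both genotypes, beside 38.2% of the 285, and all 17 differed by less than 2-fold between them, beside 77.2%. For 13 the whole interval lay inside 2-fold. Their median fold was 5.13 in ein3eil1 and 5.73 in Col. They include BCAT4 and MAM1, which begin chain elongation, and the isomerase subunits IPMI1, IPMI2 and IIL1. They also include the cytochromes CYP79F2, CYP79B3, CYP83A1 and CYP83B1, the C-S lyase SUR1, and the sulfotransferases SOT17 and SOT18. MAM1 had 14.2 and 186 RPKM in ein3eil1 with and without Cd, against 13.1 and 163 RPKM in Col with and without Cd, and BCAT4 had 54.6 and 479 RPKM in ein3eil1 with and without Cd, against 22.9 and 230.4 RPKM in Col with and without Cd. CYP83A1 had 30.3 and 218 RPKM in ein3eil1 with and without Cd, against 15.5 and 153 RPKM in Col with and without Cd. The narrowest intervals were those around the differences of IIL1, 0.28 (0.22 to 0.35), and CYP83B1, 0.25 (0.18 to 0.32). The largest differences were those of SUR1 at 0.66 (0.02 to 1.30), SOT17 at 0.63 (0.38 to 0.87) and IPMI2 at -0.54 (-0.75 to -0.33). In all 17 the mutant had more RPKM than Col both with and without Cd, beside 183 and 185 of the 285. The gap was 2-fold or more in 5 of the 17 in each state, beside 22.5% of the 285 with Cd and 25.6% without. The ratios were thus alike within 2-fold while the levels were not equal.

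Sulfur metabolism moved the other way. Of 16 models, 15 were higher with Cd in both genotypes, beside 52.3% of the 285, with a median fold of 7.84 in ein3eil1 and 5.21 in Col. Of the 16, 13 (81.25%) differed by less than 2-fold, close to the 77.2% of the 285. In 9 of the 15 the ratio was the larger in ein3eil1, beside 78 of all 149 models higher in both. The difference of SDI1 and SULTR1;1 is given above, and LSU1, with 1 read in each untreated library, was not resolved at -1.65 (-5.66 to 2.36). LSU2 had 53.3 and 4.66 RPKM in ein3eil1 with and without Cd, against 16.7 and 2.44 RPKM in Col with and without Cd, a difference of -0.74 (-1.48 to 0.01). SHM7, a serine hydroxymethyltransferase, had 91.3 and 35.2 RPKM in ein3eil1 with and without Cd, against 82.8 and 33.8 RPKM in Col with and without Cd and the narrowest interval of the group, -0.08 (-0.21 to 0.05). Among genes of sulfate reduction, APR3 had 54.8 and 16.3 RPKM in ein3eil1 with and without Cd, against 48.8 and 10.4 RPKM in Col with and without Cd and a difference of 0.47 (0.25 to 0.69), and APR2 had 6.64 and 1.57 RPKM in ein3eil1 with and without Cd, against 5.50 and 1.98 RPKM in Col with and without Cd and a difference of -0.61 (-1.22 to 0.01), so the 2 reductases leaned to different sides. The sulfate transporter AST68 (SULTR2;1) was 3.27-fold higher in ein3eil1 and 4.60-fold higher in Col. The 1 member lower in both was AKN2 (APK2), which makes the activated sulfate used for glucosinolates, with 62.6 RPKM in ein3eil1 with Cd and 154 RPKM in untreated ein3eil1, against 21.0 RPKM in Col with Cd and 70.2 RPKM in untreated Col.

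Of the 10 glutathione transferases, 7 were higher and 3 lower with Cd in both genotypes, and all 10 differed by less than 2-fold. Over all 285 models, 90.5% moved the same way in both genotypes and 77.2% also differed by less than 2-fold. GSTU24, which had 419 and 187 RPKM in ein3eil1 with and without Cd, against 222 and 55.9 RPKM in Col with and without Cd, had the largest difference of them, 0.82 (0.70 to 0.95). GSTF9 had 311 and 644 RPKM in ein3eil1 with and without Cd, against 153 and 379 RPKM in Col with and without Cd, and GSTU22 had 63.7 and 30.5 RPKM in ein3eil1 with and without Cd, against 38.0 and 13.8 RPKM in Col with and without Cd. The mutant stood 2-fold or more above Col in 5 of the 10 with Cd and in 6 without, beside 22.5% and 25.6% of the 285. Centring each genotype's ratios on the median of the shared models turned the sign of 2 of the 10 in either genotype, beside 35 of the 285. Those medians, log2 ratios of 1.11 in ein3eil1 and 1.15 in Col, lie just past the 2-fold limit of the listing. A model listed as higher by less than the median turns sign by construction.

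Heat shock proteins and chaperones were higher with Cd in 10 of 11 models in both genotypes, beside 52.3% of the 285, and lower in 1, the DnaJ protein J8. The mutant stood above Col in 10 of 11 both with and without Cd, beside 183 and 185 of the 285. The gap was 2-fold or more in 7 with Cd and in 8 without, beside 22.5% and 25.6% of the 285. HSP70 had 100.4 RPKM in ein3eil1 with Cd and 30.6 RPKM in untreated ein3eil1, against 48.7 RPKM in Col with Cd and 10.4 RPKM in untreated Col, a difference of 0.51 (0.33 to 0.68). The small heat shock protein HSP17.4 had 44.2 and 11.4 RPKM in ein3eil1 with and without Cd, against 10.8 and 0.936 RPKM in Col with and without Cd, and its ratio, 3.89-fold higher (3.22 to 4.72) in ein3eil1 and 11.5-fold higher (6.51 to 22.2) in Col, was the larger in Col by 1.57 (0.70 to 2.43), with 13 reads in untreated Col. AT-HSP17.6A and HSP17.6II, next-door genes, lay on the same side at 0.86 and 0.85, with intervals that held 0, whereas AT2G29500 and HSP81-1 lay on the other at -0.79 and -0.34.

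**Figure D4:**
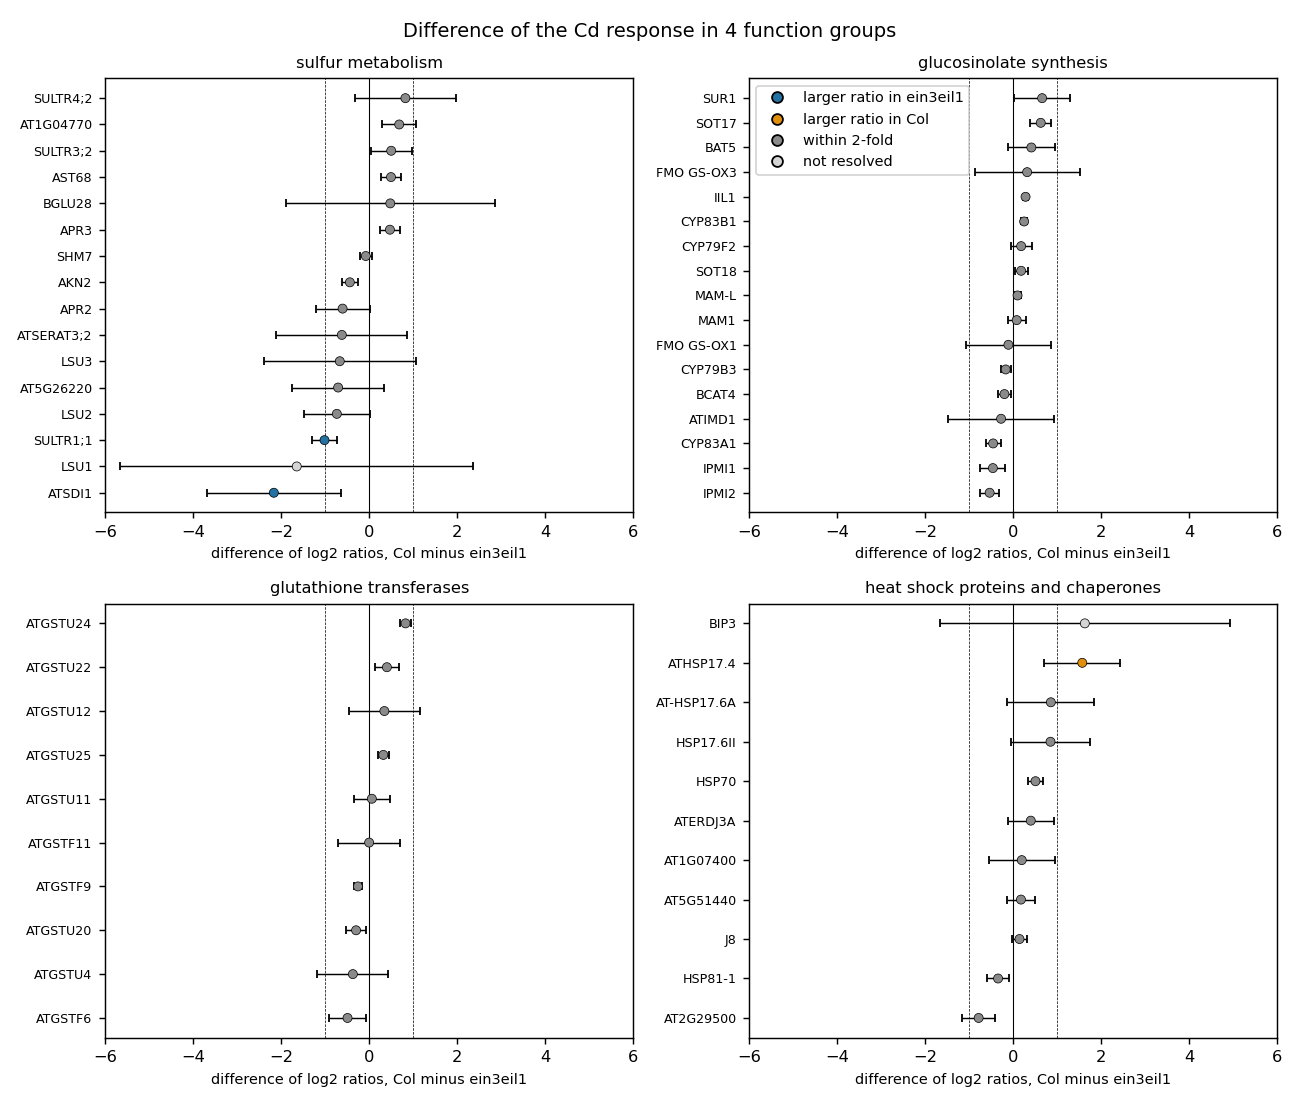
The difference of log2 ratios (Col minus ein3eil1) is plotted with its 95% counting interval for each model of sulfur metabolism, glucosinolate synthesis, glutathione transferases and heat shock proteins and chaperones, with dashed lines at 2-fold. All points of the glucosinolate and glutathione transferase panels lie inside the dashed lines, and ATSDI1, SULTR1;1 and ATHSP17.4 lie outside them with intervals that exclude 0.

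Of 26 models grouped as transcription regulators by their Descriptions, 21 were higher and 5 lower with Cd in both genotypes. Of the 26, 23 (88.5%) differed by less than 2-fold, beside 77.2% of the 285. The exceptions were BT1, and MIF3 and anac042, whose intervals held 0. ANAC003 had 49.4 and 11.7 RPKM in ein3eil1 with and without Cd, against 72.7 and 29.2 RPKM in Col with and without Cd, a difference of -0.75, and ATMYB4 had 92.8 and 33.4 RPKM in ein3eil1 with and without Cd, against 58.7 and 23.0 RPKM in Col with and without Cd. Centring turned the sign of 8 of the 26 in either genotype, beside 35 of the 285. When centred, 13 of the 26 were higher in both. Of 8 protein kinases 7 (87.5%) differed by less than 2-fold, beside 77.2% of the 285. Among the 7 was the calcium-sensor-regulated kinase ATSR1 (CIPK14), with 126 and 55.2 RPKM in ein3eil1 with and without Cd, against 66.7 and 28.9 RPKM in Col with and without Cd. The 8 cytochromes P450 outside glucosinolate synthesis all moved alike, 7 higher and 1 lower, beside 90.5% of the 285 that moved the same way. Every interval of the 8 held 0, beside 168 of the 285. FAH1, of lignin synthesis, had 134 and 52.7 RPKM in ein3eil1 with and without Cd, against 106 and 42.7 RPKM in Col with and without Cd.

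Groups of mixed direction held most of the other models. Lipid and lipid-transfer models were 6 higher, 8 lower and 1 opposite, with 5 of 15 larger in Col, beside 5.96% of the 285. Peroxidases and thioredoxins were 6 higher and 5 lower, with 8 of 11 (72.7%) within 2-fold, beside 77.2% of the 285. PER64, a peroxidase of the Casparian strip, had 50.9 and 118 RPKM in ein3eil1 with and without Cd, against 43.6 and 112 RPKM in Col with and without Cd. Cell wall models were 4 higher, 7 lower and 1 opposite. CASP2, which builds the Casparian strip membrane domain, had 54.0 and 116 RPKM in ein3eil1 with and without Cd, against 37.4 and 115 RPKM in Col with and without Cd, a difference of -0.52 (-0.70 to -0.33). In the amino acid group, AK3, an aspartate kinase, had 14.5 and 72.8 RPKM in ein3eil1 with and without Cd, against 4.54 and 28.1 RPKM in Col with and without Cd. DJ1F, placed there only by its Description as a glutamine amidotransferase-like protein, had 25.3 and 139 RPKM in ein3eil1 with and without Cd, against 9.06 and 63.7 RPKM in Col with and without Cd. Aquaporin PIP2F (PIP2;4) had 49.5 and 109.7 RPKM in ein3eil1 with and without Cd, against 30.5 and 111 RPKM in Col with and without Cd, and phytosulfokine precursor ATPSK4, a growth peptide, had 122 and 268 RPKM in ein3eil1 with and without Cd, against 171 and 379.9 RPKM in Col with and without Cd.

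**Figure D5:**
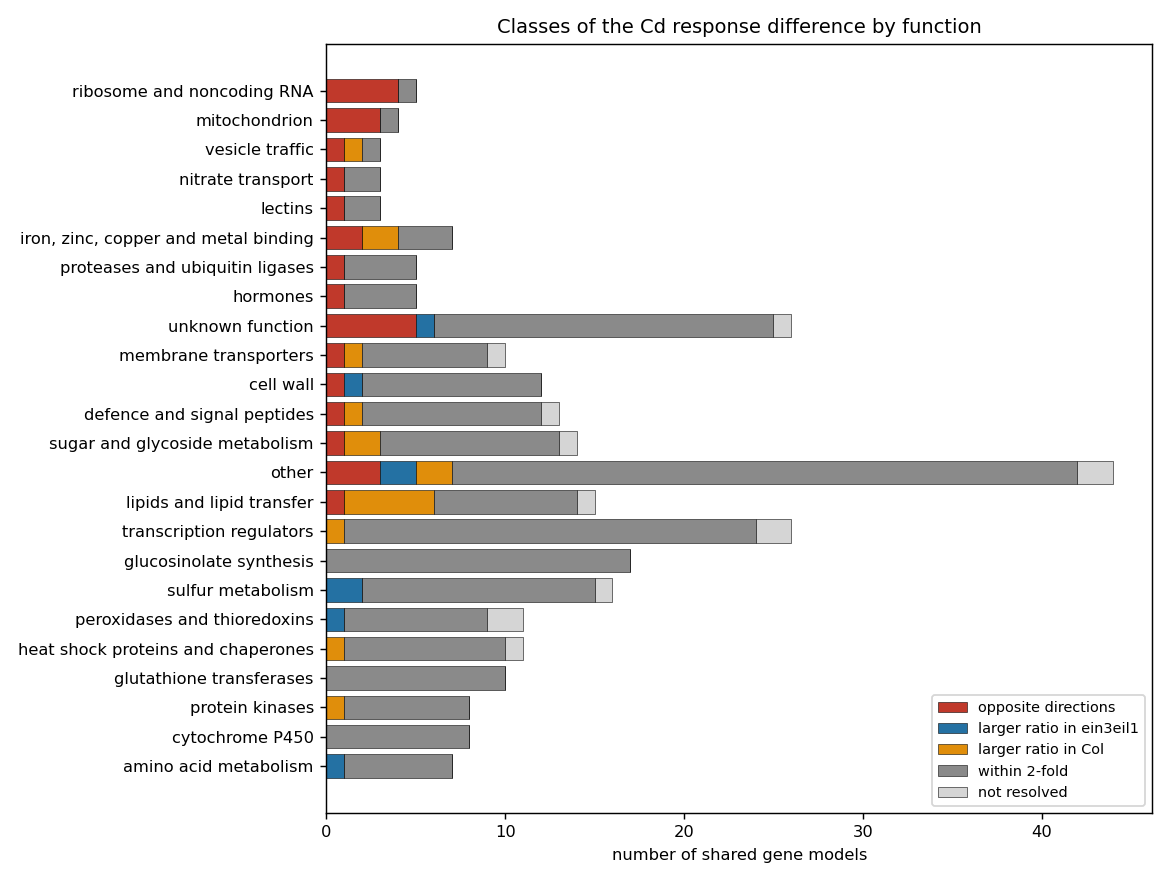
The number of shared models in each function group with 3 or more members is plotted as stacked bars, coloured by class of the Cd response difference. The groups are ordered by the share of models of opposite direction, which is highest at the top in ribosome and noncoding RNA (4 of 5) and mitochondrion (3 of 4) and 0 in the 9 groups from transcription regulators down.

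Genes of ethylene and of other pathways were looked up by list, and a count here shows only which genes the tables hold. Of 12 genes of ethylene synthesis, 1 was listed for ein3eil1 and 2 for Col, and the 1 in both was ACS5, an ACC synthase. ACS5 had 0.0951 RPKM in ein3eil1 with Cd and 1.03 RPKM in untreated ein3eil1, against 0.0635 RPKM in Col with Cd and 0.722 RPKM in untreated Col, lower in both genotypes with a difference of -0.06 (-2.75 to 2.62). Of 14 genes of ethylene perception and signalling, 1 was listed for ein3eil1, none for Col and none for both. Of 16 genes of the low-sulfur response, 13 were shared. Marker genes of other root zones were not shared: 0 of 4 for root hairs, 0 of 3 for the endodermis, 0 of 3 for xylem, 0 of 5 for the meristem and 0 of 2 for the root cap, and 0 of 5 for photosynthesis. Of the photosynthesis genes, 3 were listed for ein3eil1 and 0 for Col. RBCS1A had 46.9 RPKM in ein3eil1 with Cd and 20.7 RPKM in untreated ein3eil1, LHCB2.1 had 17.9 and 7.54 RPKM in ein3eil1 with and without Cd, and RBCS3B had 10.2 and 3.23 RPKM in ein3eil1 with and without Cd. All 3 were higher with Cd, and their part in the differences between genotypes was not tested. An unlisted gene may have differed by less than 2-fold or have had too few reads.

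Some of the models were neighbours. Among the 285 models there were 12 pairs of next-door genes, and 11 of them moved the same way in both genotypes, 8 of the 12 sharing a function group. They include GSTU24 and GSTU25, GSTU11 and GSTU12, LSU3 and LSU1, MAM1 and MAM-L, and the lipid-transfer pair described above. In the exception, AT2G44290 and AT2G44300, both lipid-transfer proteins, AT2G44290 was higher with Cd in both genotypes (8.01 and 3.40 RPKM in ein3eil1 with and without Cd, against 9.98 and 2.71 RPKM in Col with and without Cd), and AT2G44300 was lower in both (24.7 and 66.9 RPKM in ein3eil1 with and without Cd, against 14.7 and 37.7 RPKM in Col with and without Cd).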

How the data were processed

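Total RNA of 4 root libraries, 1 per group by sample title, was sequenced by the authors with random-primed cDNA, per the labels' protocols. The deposited tables give read counts per gene model and, per the file headers, RPKM values, their log2 ratio, a p-value and an FDR (0.000967 or less in Col and 0.000987 or less in ein3eil1). The smallest deposited log2 ratio is 1.00 in size. The deposited RPKM equals count over model length and 1 constant per library, which gave the library totals, and is 0.001 where the count is 0. Not given in the sources used here were aligner, counter, strand setting and build. The p-values compare 2 libraries and were not used.

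Ratios were computed from counts with 3 reads in place of 0 (0.156 to 0.179 RPM), for models shared by both tables with 1 RPKM or more in any library. Differences have normal 95% intervals from the 4 counts, folds have exact Clopper-Pearson intervals, and counting error alone sets these. The steps were tested on simulated counts. Functions came from Description patterns for 225 models and by hand for 16, leaving 44 as other. The patterns were revised after the Descriptions were read. All 285 loci matched the TAIR10.1 annotation, used for names, transcripts, neighbours and the 250-base promoters read at its own gene starts. The members and lists were chosen with earlier results of these data known. Genes named were all models of opposite direction, the 8 largest same-direction differences each way, and the 5 largest gap changes each way (both at 10 RPKM or more). The 8 each way were taken only from models whose interval excluded 0. The rules also picked up to 3 largest with an interval that excluded 0 and the narrowest in each function group, and only some of these are named. Others named (FRO2, BT2, LSU2, LSU3, APR2, APR3, AST68, AKN2, MAM1, BCAT4, CYP83A1, CYP83B1, ATMYB4, GSTU11, GSTU12, GSTU25, HSP17.6II, HSP81-1, ACS5, MIF3, anac042, ATLTL1, AT2G44290, RBCS1A, LHCB2.1, RBCS3B and the pathway members listed by name only) were chosen after their values were seen. Computation used SciPy 1.17.1, pandas 2.3.3 and numpy 2.4.6 under Python 3.11.15, and plots matplotlib 3.10.9. Alternatives covered the minimum, the value in place of 0, a pseudocount, centring, the fold, the FDR and the transcripts of a locus.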

Additional observations from a re-analysis of the deposited data

Results flagged for a closer look

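The 27 models of opposite direction drew attention because the mutant library and the Col library moved opposite ways under the same treatment. Each genotype has 1 pair of libraries, so the difference was not tested, and the values below are differences of log2 ratios, Col minus ein3eil1. Those lower with Cd in ein3eil1 and higher in Col were SAD6 at 4.62, AT1G56060 at 3.67, AT4G39363 at 3.18, AT5G47700 at 3.18, AT5G52760 at 3.16, SIP2;1 at 3.12, AT1G05785 at 3.10, WR3 (NRT3.1) at 3.07 and JAL33 at 2.86. The others of that direction were HEMB1 at 2.81, FAMT at 2.69, AT2G20820 at 2.69, TIM10 at 2.68, AT4G14450 at 2.62, AT4G09260 at 2.46, PROPEP1 at 2.35, AtPP2-B14 at 2.26 and LOX3 at 2.21. Those higher with Cd in ein3eil1 and lower in Col were AT1G29090 at -6.92, AT5G08180 at -5.08, AtGH9B15 at -5.02, AT1G52342 at -4.10, ACO1 at -3.72, AT5G22440 at -3.25, AT2G05510 at -3.14, mtACP3 at -2.83 and MT2A at -2.41. Of the 27, 19 had 20 reads or more in all 4 libraries, and 212 of the 285 shared models did. The values of AT1G29090, AT1G52342, AtGH9B15 and AT2G05510 rest on 5 or fewer reads in the untreated mutant.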

How the results depend on the processing

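The number of models of opposite direction, 27, was 15 at a deposited FDR of 1e-05 or less in both tables, 11 at loci with 1 transcript and 51 after the median ratio of the shared models was taken off, which moved every log2 ratio down by 1.11 in ein3eil1 and 1.15 in Col. Of the 51, 24 were among the 27, and TIM10, AT5G47700 and LOX3 were not. The count of models higher in both was 149 as scaled by the library totals and 116 when centred. The 8 models with the larger ratio in ein3eil1 were 3 with a pseudocount of 1 RPKM and 18 at 1.5-fold. The 17 with the larger ratio in Col were 8 with the pseudocount, 31 at 1.5-fold and 10 at loci with 1 transcript. The 27 gaps that narrowed were 14 with the pseudocount and 47 at 1.5-fold, and the 13 that widened were 29 at 1.5-fold. A minimum of 5 RPKM, no minimum and 1 read in place of 0 left these 6 counts within 1.5 times. Of 95 differences of models picked by the naming rules, some of them not named here, 86 moved by less than their interval with the pseudocount. With centring or with 1 read in place of 0, 95 did. Of the 95, 3 changed sign, each with an interval that held 0: ATSAR1 was -0.78 and became 0.80 with 1 read in place of 0, AT1G04425 was -0.00360 and became 0.0199 with the pseudocount, and ATSR1 was 0.0198 and became -0.0256 with centring. The FDR and transcript settings keep fewer models, a pseudocount shrinks ratios of low models, and a lower fold admits more. Centring takes off medians just past the 2-fold limit of the listing, so models listed as higher by less than the median turn sign by construction. Those counts therefore do not show how the library totals should be scaled. The cause of the other changes was not tested. No paired analysis was possible because each group has 1 library, and leaving out a library would leave no comparison. Depth limits the ratios of models with few reads in any library, among them 13 whose interval held 0 at 2-fold or more.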
